A study of Mus musculus with 6 samples.

Results

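The genes described here are 9 genes of autophagy and Ddit4, an inhibitor of the growth kinase complex mTORC1, in mouse liver. They are Map1lc3b, Gabarapl1, Sqstm1, Ulk1, Wipi1, Atg16l2, Becn1, Bnip3, Bnip3l and Ddit4, and were read from probe sets whose annotation names a single gene. Such a probe set was found for 9 of the 10 genes, among 18193 genes measured this way. All 3 probe sets of Bnip3l also name its pseudogene Bnip3l-ps, so Bnip3l stays out of every count. Each gene is represented by its brightest probe set by mean over the 6 arrays, and its other probe sets are given beside it. The genes were selected on their measured levels over the 3 groups of these same arrays. All differences and calls below are therefore a description and give no independent evidence that these genes respond.

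Male C57BL/6J mice aged 8 weeks gave 3 groups of 2 livers, each hybridised to an expression array of its own. Wild-type mice had been fed normal chow, wild-type mice had been without food for 24 h, and Cnot3+/- mice, heterozygous for Cnot3, had been without food for 24 h. Fasted mice were housed individually, a condition that therefore came with the fast. No group of fed Cnot3+/- mice was analysed here, so the genotypes were compared in fasted liver only. Cnot3 belongs to the CCR4-NOT complex, the main remover of mRNA poly(A) tails. Its own 2 probe sets differed by -0.01 and -0.08 (log2) between the fasted groups, and since the altered stretch of the gene is not given in the sources used here, these values do not check the genotype. Array medians lay between 5.59 and 5.64, and replicate arrays correlated across genes at r = 0.993 to 0.995, with genes not being independent replicates. The labels call the 2 livers of a group biological replicates, and this number limits the precision of every value. Whole liver was measured: the hepatocyte markers Alb, Apoa1, Ttr, Cps1 and Tat read 13.65 or more on every array.

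Autophagy encloses cytoplasm in a membrane, the autophagosome, and delivers it to lysosomes for breakdown, and in liver it supplies amino acids and lipids during a fast. The kinase Ulk1 and the lipid kinase complex of Becn1 start the process, Wipi1 binds the lipid they produce, and Atg16-type scaffolds direct the attachment of Atg8 proteins such as Map1lc3b and Gabarapl1 to the membrane. Receptors such as Sqstm1, Bnip3 and Bnip3l tie cargo to these Atg8 proteins. mTORC1 holds Ulk1 in check when nutrients are plentiful, and Ddit4 restrains mTORC1 through the TSC complex.

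Promoters were matched for 8 of the 10 genes in RefSeq windows of 300 bases, from 250 before the annotated start to 50 after it, on GRCm38.p6. The windows below belong to Ddit4, Bnip3 and Map1lc3b, the 3 genes called after the fast, and to Gabarapl1, the other Atg8 gene, which also held a motif match. Each is written 5′ to 3′ along its own gene, with motif matches in capitals.

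Ddit4, chr10:59951721-59952020, minus strand: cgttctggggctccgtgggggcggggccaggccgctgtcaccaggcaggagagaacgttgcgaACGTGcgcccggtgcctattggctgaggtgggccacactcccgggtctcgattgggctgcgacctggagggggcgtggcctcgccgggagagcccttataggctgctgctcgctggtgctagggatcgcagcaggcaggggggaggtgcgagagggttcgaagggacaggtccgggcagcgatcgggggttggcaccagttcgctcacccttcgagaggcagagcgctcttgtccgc

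Bnip3, chr7:138909457-138909756, minus strand: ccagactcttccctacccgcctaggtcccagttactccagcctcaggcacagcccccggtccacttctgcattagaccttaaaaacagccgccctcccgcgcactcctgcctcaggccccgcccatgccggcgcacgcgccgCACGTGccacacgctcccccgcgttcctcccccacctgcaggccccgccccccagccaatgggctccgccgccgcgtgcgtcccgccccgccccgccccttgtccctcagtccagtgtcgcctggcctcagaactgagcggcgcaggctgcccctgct

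Map1lc3b, chr8:121590188-121590487, plus strand: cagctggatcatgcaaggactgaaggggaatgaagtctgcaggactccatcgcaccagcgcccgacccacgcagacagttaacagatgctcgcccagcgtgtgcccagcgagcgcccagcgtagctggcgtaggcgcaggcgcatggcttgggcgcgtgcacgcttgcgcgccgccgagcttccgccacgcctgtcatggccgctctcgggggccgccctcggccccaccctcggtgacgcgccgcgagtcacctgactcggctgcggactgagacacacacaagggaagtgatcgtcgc

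Gabarapl1, chr6:129532942-129533241, plus strand: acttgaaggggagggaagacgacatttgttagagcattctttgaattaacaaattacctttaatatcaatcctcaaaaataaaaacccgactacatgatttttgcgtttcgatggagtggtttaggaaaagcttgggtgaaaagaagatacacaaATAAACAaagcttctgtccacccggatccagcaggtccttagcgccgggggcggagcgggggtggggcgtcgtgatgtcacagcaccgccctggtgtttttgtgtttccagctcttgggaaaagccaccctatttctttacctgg

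Motif letters were searched on both strands. The E-box in the CLEAR element of the lysosomal regulator TFEB, CACGTG, stood only in the Bnip3 window among the 8, at position -108 from the start, and in 7.15% of all 32851 windows. The core of the hypoxia response element, ACGTG, is contained in that E-box, and it stood in the windows of Bnip3 and of Ddit4, there at position -187, and in 19.6% of all windows. Of the FoxO core, the form ATAAACA stood only in the Gabarapl1 window, at position -95, and in 4.6% of all windows. The other form of the FoxO core searched, GTAAACA, was found in none of the 8 and in 3.65% of all windows. An amino acid response element, TGATGNAAT, was also found in none of the 8 and in 0.965% of all windows, as was the palindromic glucocorticoid response element, found in 0.00913% of all windows. Matches and missing matches describe these letters in these windows and nothing about a factor. The Gabarapl1 window held 46.3% G and C against 69% for Ddit4, 71.7% for Bnip3 and 68% for Map1lc3b. The median over all windows was 52.7%, nearer to Gabarapl1 than to the windows of these other genes.

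In wild-type liver after the fast, Ddit4, Map1lc3b and Bnip3 rose, Sqstm1, Gabarapl1 and Wipi1 were higher without passing the test, and Ulk1, Becn1 and Atg16l2 showed differences smaller than their errors. In limma's test over all 18193 genes with Benjamini-Hochberg adjustment at 0.05, 3 of 9 genes passed upward and 0 downward, where 1.87% of all genes passed upward, 3.15% downward and 5.02% in either direction. The median log2 difference of the 9 genes was 0.52, against 0.02 over all genes. In 6 of the 9 the 2 fasted arrays lay above both fed arrays, which held for 27.1% of all genes, and 6 of 9 had an unadjusted p under 0.05, as did 18.9% of all genes.

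**Figure D1:**
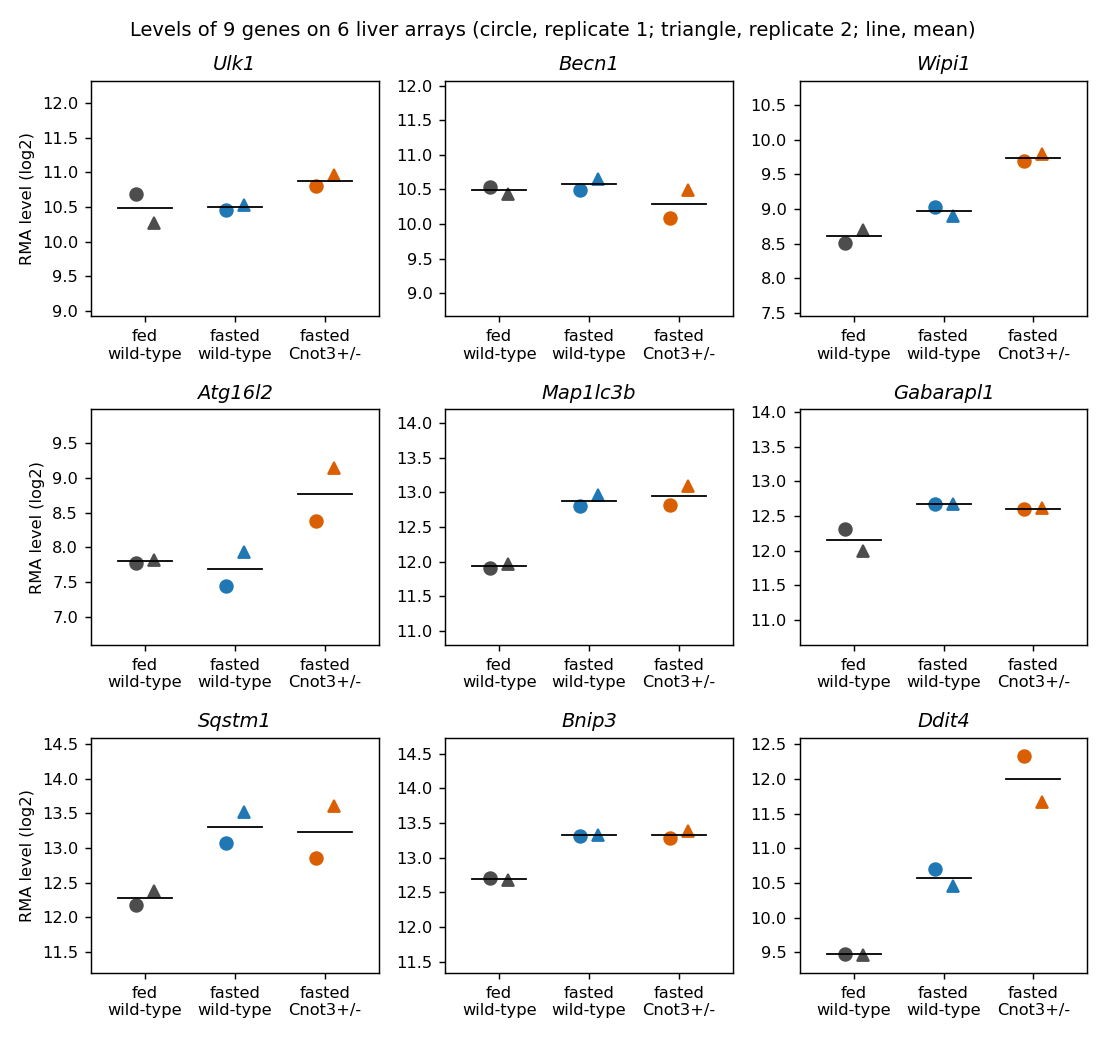
RMA levels (log2) of 9 genes on 6 liver arrays, with each array as a point (circle, replicate 1; triangle, replicate 2) and group means as lines; all vertical axes span the same log2 range but start above 0. Map1lc3b and Bnip3 form a low fed pair and a high level in both fasted groups, while Ddit4 climbs from a mean of 9.47 (fed) to 10.57 (fasted wild type) and 12.00 (fasted heterozygotes).

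Of the Atg8 proteins, Map1lc3b, the precursor of the LC3B protein that coats autophagosomes, read 11.91 and 11.96 in the fed livers, 12.80 and 12.96 in wild-type livers after the fast, and 12.82 and 13.09 in Cnot3+/- livers after the fast. Fed and fasted arrays did not overlap, and the arrays of both fasted groups interleaved. The rise in wild-type liver was 1.93-fold (log2 0.95, SE 0.14, limma adjusted p = 0.0126). All 4 probe sets of Map1lc3b were higher after the fast, by 0.70 to 1.06. With every probe set tested on its own, the brightest and the third brightest passed (adjusted p = 0.0242 and 0.0143). The dimmest, which read 5.87 and 5.25 in fed liver, lay close to the array medians there.

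Gabarapl1, an Atg8 protein of the GABARAP branch, read 12.31 and 12.00 in the fed livers, 12.67 and 12.68 in wild-type livers after the fast, and 12.61 and 12.61 in Cnot3+/- livers after the fast. The fed livers were spread over 0.31, and both lay below all 4 fasted arrays. The difference after the fast in wild-type liver, 1.43-fold (log2 0.52, SE 0.14), did not pass (adjusted p = 0.0851). Its other probe set showed the same order, at 11.56 and 10.98 fed, 11.97 and 11.95 in the fasted wild type and 11.85 and 11.78 in the fasted heterozygotes.

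Among the receptors, Sqstm1, which binds ubiquitin-tagged cargo and is itself consumed by autophagy, read 12.17 and 12.37 in the fed livers, 13.08 and 13.52 in wild-type livers after the fast, and 12.86 and 13.61 in Cnot3+/- livers after the fast. Each fasted array was above each fed array, but fasted livers of the same genotype lay as much as 0.75 apart. The 2.04-fold difference in wild-type liver (log2 1.03, SE 0.26) did not pass (adjusted p = 0.0726), although its size exceeded that of Map1lc3b. Its 95% interval ran from 0.42 to 1.64. The second Sqstm1 probe set, near the array medians at 5.73 to 6.25, was higher by 0.29 after the fast.

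Bnip3, a receptor in the outer mitochondrial membrane that marks mitochondria for autophagy, read 12.71 and 12.67 in the fed livers, 13.31 and 13.33 in wild-type livers after the fast, and 13.28 and 13.38 in Cnot3+/- livers after the fast. The 2 livers of a group lay 0.03, 0.02 and 0.10 apart, in the order given, the fed pair was separate, and the fasted genotypes overlapped. The rise in wild-type liver was 1.55-fold (log2 0.63, SE 0.11, adjusted p = 0.027). Bnip3 has 1 probe set, so no second measurement on the same arrays was available. The 3 probe sets shared by Bnip3l, a related mitochondrial receptor best known for clearing mitochondria from maturing red cells, and its pseudogene were also higher in fasted than in fed wild-type liver, by 0.15 to 0.48 and with no overlap. Their brightest read 11.39 and 11.44 fed, 11.68 and 11.53 in the fasted wild type and 12.11 and 11.96 in the fasted heterozygotes. Between the fasted genotypes, 2 of the 3 were higher on both Cnot3+/- arrays, by 0.42 and 0.28. These values cannot be divided between the gene and the pseudogene, and they were not tested. Of 4 measured erythroid markers, Slc4a1, Epb42 and Hba-a1 lay at or under the array medians on every array, and Alas2, the first enzyme of heme synthesis in red cell precursors, set the summed level of the list at 10.15 and 10.46 fed, 9.77 and 9.36 in the fasted wild type and 10.01 and 9.78 in the fasted heterozygotes.

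Of the genes that start the process, Ulk1, the kinase inhibited by mTORC1, read 10.69 and 10.27 in the fed livers, 10.46 and 10.53 in wild-type livers after the fast, and 10.80 and 10.96 in Cnot3+/- livers after the fast. Fed and fasted wild-type arrays overlapped, with a difference of 0.01 (SE 0.16, 95% interval -0.37 to 0.39). Its dimmer probe set differed by 0.45 in the same comparison, also with overlapping groups and with the fed livers at 8.47 and 7.71.

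Becn1, a subunit of the lipid kinase complex, read 10.53 and 10.44 in the fed livers, 10.50 and 10.64 in wild-type livers after the fast, and 10.09 and 10.48 in Cnot3+/- livers after the fast. Its fasting difference was 0.09 (SE 0.16, 95% interval -0.29 to 0.46), an interval that holds no change as well as a rise of 1.37-fold. All 5 Becn1 probe sets gave fasting differences between 0.02 and 0.18. Both ends of this range came from probe sets at or under the array medians on all 6 arrays, and the next brightest gave 0.07. Becn1 was the gene whose choice of probe set was closest, with means over the 6 arrays of 10.45 for the brightest and 10.26 for the next.

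Wipi1, which binds the lipid made by the Becn1 complex on the growing membrane, read 8.51 and 8.70 in the fed livers, 9.03 and 8.91 in wild-type livers after the fast, and 9.69 and 9.79 in Cnot3+/- livers after the fast. The 3 groups formed 3 separate steps. The first step, fed to fasted wild-type, was 1.29-fold (log2 0.36, SE 0.13) and did not pass (adjusted p = 0.18). Of its 6 probe sets, 5 were higher after the fast and 1, near the array medians, was lower (log2 -0.24).

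Atg16l2, a relative of the Atg16l1 scaffold, read 7.78 and 7.82 in the fed livers, 7.44 and 7.93 in wild-type livers after the fast, and 8.39 and 9.15 in Cnot3+/- livers after the fast. Fed and fasted wild-type livers overlapped (log2 -0.12, SE 0.26, 95% interval -0.73 to 0.50). Its second probe set read 4.51 to 5.09, under the array medians on all 6 arrays.

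Ddit4, made in cells under stress and in response to glucocorticoids, read 9.47 and 9.46 in the fed livers, 10.70 and 10.45 in wild-type livers after the fast, and 12.33 and 11.67 in Cnot3+/- livers after the fast. As with Wipi1, the groups formed separate steps, and the fasted Cnot3+/- livers were the most spread. The rise in fasted wild-type liver was 2.15-fold (log2 1.11, SE 0.21, adjusted p = 0.0338). A single probe set represents Ddit4.

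Each of the 3 fasting calls was lost when any single array of that comparison was left out, while the size of the difference changed little. The adjusted p of Map1lc3b became 0.0627 or 0.0652 when the first or second fed array was dropped, and 0.0818 or 0.0968 when the first or second fasted array was dropped, for log2 differences of 0.87 to 1.02. Over the same 4 settings it ran from 0.0938 to 0.161 for Bnip3 (0.61 to 0.65) and from 0.119 to 0.204 for Ddit4 (0.98 to 1.23). Ddit4 also missed the threshold when all 34945 single-gene probe sets were tested (0.0545).

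**Figure D2:**
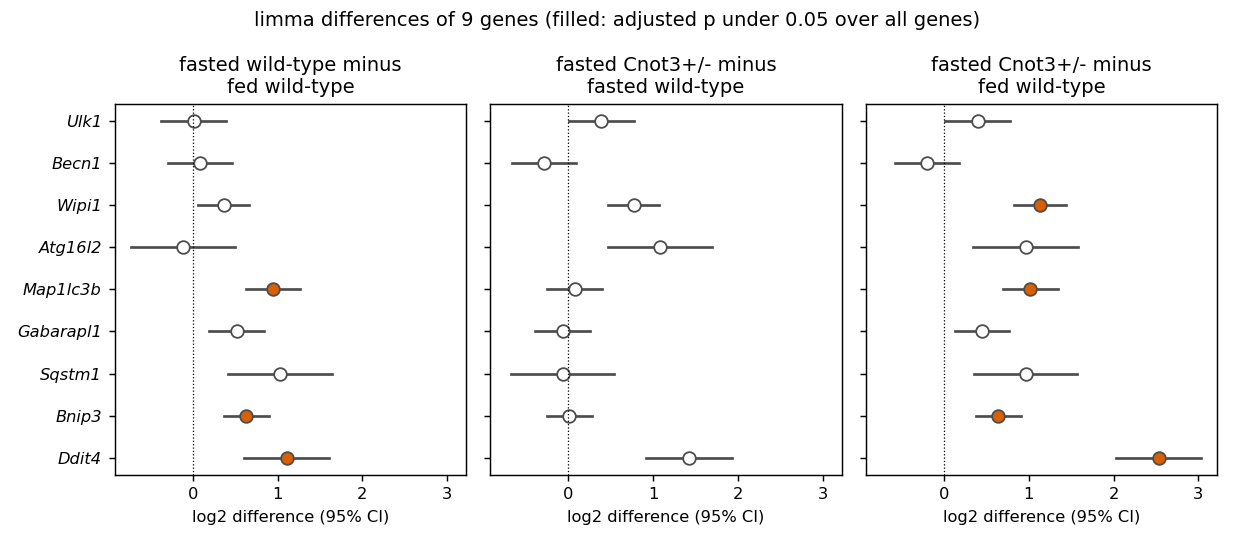
Log2 differences of 9 genes with 95% intervals from limma in 3 comparisons; filled points passed the test over all 18193 genes. After the fast Map1lc3b, Bnip3 and Ddit4 are filled, between the fasted genotypes none is, and Ddit4, Atg16l2, Wipi1 and Ulk1 lie to the right of 0 there.

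Between the fasted genotypes, Ddit4, Atg16l2 and Wipi1 were higher on the Cnot3+/- arrays, Ulk1 somewhat higher, while Map1lc3b and Bnip3, which rose with the fast, and Gabarapl1 and Sqstm1 differed by at most 0.07 in either direction. None of the 9 genes passed limma's test, and neither did any other gene (0% of 18193 called), with 4 of 9 and 1011 of all genes (5.56%) at an unadjusted p under 0.05. On 4 genes both Cnot3+/- arrays lay above both wild-type arrays, which held for 17.5% of all genes, and on 2 they lay below, which held for 18.5%. The median difference was 0.07 for the 9 genes and 0.00 over all genes.

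Ddit4 was 2.69-fold higher on the Cnot3+/- arrays (log2 1.43, SE 0.21), 10th in size among all genes. The lower Cnot3+/- array, at 11.67, exceeded the higher wild-type array by 0.97. Wipi1 was 1.71-fold higher (log2 0.77, SE 0.13), with replicates closer together in both groups than those of Ddit4. All 6 Wipi1 probe sets were higher on both Cnot3+/- arrays, by 0.12 to 0.96. Atg16l2 was 2.12-fold higher (log2 1.08, SE 0.26), but its wild-type and Cnot3+/- pairs were spread over 0.50 and 0.76. With single arrays left out its difference ran from 0.70 to 1.46.

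Ulk1 differed by 0.39 (SE 0.16, 95% interval 0.01 to 0.77) on its brighter probe set and by 0.12 with overlapping groups on the other. Becn1 differed by -0.29 (SE 0.16, interval -0.66 to 0.09), and its other 4 probe sets by -0.02 to 0.32. The next brightest gave -0.02. Differences above 0 came only from probe sets near the array medians or at or under them on all 6 arrays. For the genes that differed little, the intervals set the limits of what 2 livers a group can show. They ran from -0.25 to 0.40 for Map1lc3b, from -0.26 to 0.28 for Bnip3, from -0.39 to 0.26 for Gabarapl1 and from -0.67 to 0.54 for Sqstm1. The dimmest Map1lc3b probe set, unlike its other 3, was higher on both Cnot3+/- arrays, by 0.63.

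**Figure D3:**
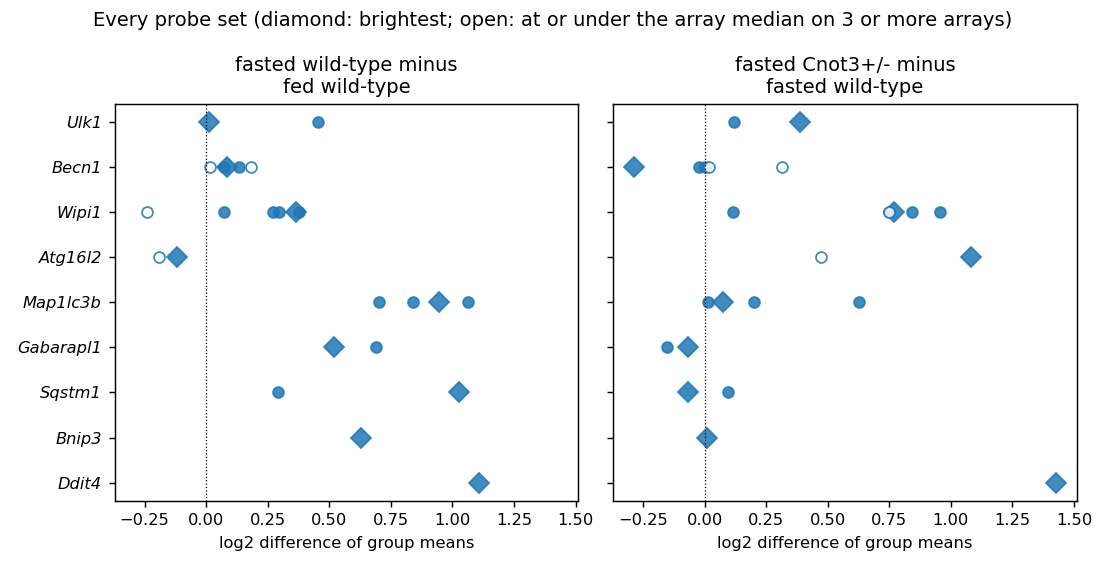
Log2 differences of group means for all 25 single-gene probe sets of the 9 genes, after the fast and between fasted genotypes; diamonds are the brightest probe set and open symbols were at or under the array median on 3 or more arrays. The 4 Map1lc3b probe sets lie at 0.70 to 1.06 after the fast, and the 6 Wipi1 probe sets all lie above 0 between the genotypes.

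Between the fasted genotypes, markers of macrophages were higher beside Ddit4, Wipi1 and Atg16l2; after the fast in wild-type liver they were higher beside Ddit4 and Wipi1, while Atg16l2 was not. The mean levels of all 10 Kupffer cell and macrophage markers measured were higher in the fasted heterozygotes than in the fasted wild type. Arrays of these groups overlapped for Vsig4 and Cd68. All 10 means were also higher in the fasted than in the fed wild type, with arrays overlapping for Csf1r and Cd68. None passed the test in either comparison. Between heterozygotes and fed livers 5 passed it upward, where 3.88% of all genes did. All 10 were above the array median on every array. Their summed level was 12.74 and 12.98 fed, 13.17 and 13.26 in the fasted wild type and 13.97 and 13.43 in the fasted heterozygotes. The first Cnot3+/- array was the highest for this sum and for Ddit4. On their brightest probe sets, the second was the higher one for Wipi1 (9.79 against 9.69) and Atg16l2. Other Wipi1 probe sets went either way, with 8.56 and 8.88 or 7.84 and 7.32 on the first and second Cnot3+/- arrays. Markers of other cells passed after the fast in both directions, where 1.87% of all genes passed upward and 3.15% downward. Of 6 stellate cell and fibroblast markers Dcn was higher (0.61) and Col3a1 (-2.32), Lrat (-1.20) and Col1a1 (-0.65, under the array medians on all 6 arrays) were lower, of 6 endothelial markers Lyve1 was higher (1.58), and of 3 pancreatic markers Cela1 was lower (-1.45). Their summed levels were 12.26 and 12.16 fed against 12.36 and 12.26 fasted for the stellate list, 11.42 and 11.43 against 11.67 and 11.60 for the endothelial list and 10.58 and 10.49 against 9.32 and 9.41 for the pancreatic list. Cela1 set most of the pancreatic sum, at 10.43 and 10.35 fed and 8.84 and 9.03 in the fasted wild type. Prss2 was higher (0.31) without passing, and Cpa1 lay at or under the array medians on all 6 arrays. None of these markers passed between the fasted genotypes. The part of any of these cells in the differences of the 9 genes was not tested, and in whole liver more cells of a type cannot be told apart from more RNA per cell.

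The first Cnot3+/- array also had the largest gap between 3′ and 5′ control probe sets for 3 of 4 transcripts. For beta-actin the gap was 1.06 there and 0.43 to 0.62 on the other 5 arrays, and for pyruvate carboxylase it was 4.12 there and 1.87 to 3.29 elsewhere. Becn1, Sqstm1, Bnip3 and Gabarapl1 had their lowest fasted readings on this array. For Bnip3 it read 13.28 against 13.31 on the next lowest fasted array, and for Gabarapl1 12.608 against 12.609. Without it the Ddit4 difference between genotypes was 1.10, that of Wipi1 0.82 and that of Atg16l2 1.46. That of Becn1 was then -0.09, against -0.29 with all arrays, and that of Sqstm1 0.31, against -0.07. Bnip3 then differed by 0.06 and Gabarapl1 by -0.07.

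**Figure D4:**
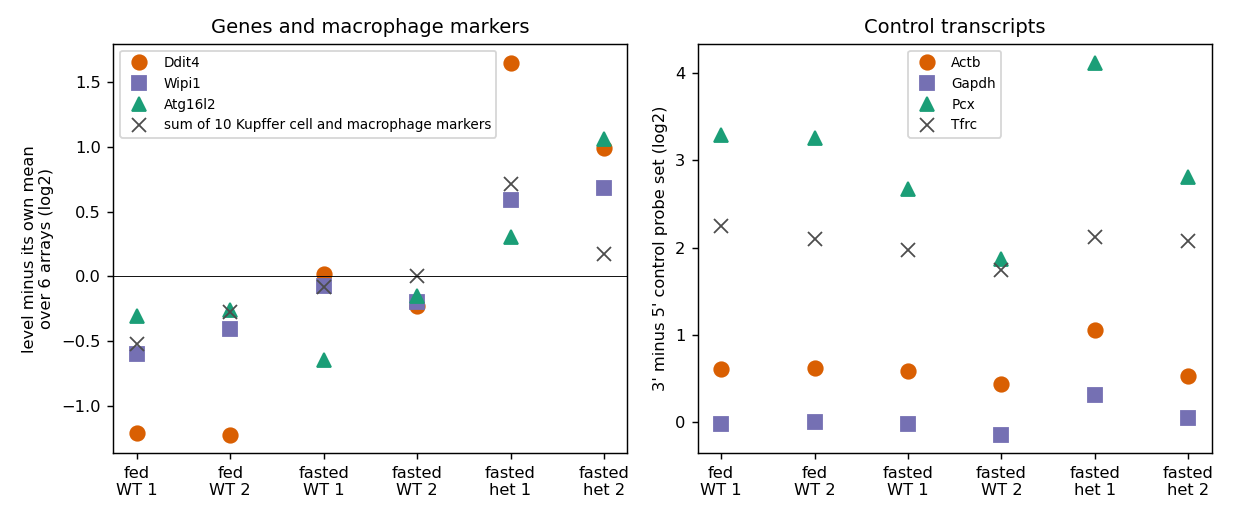
Left, levels of Ddit4, Wipi1, Atg16l2 and the summed level of 10 Kupffer cell and macrophage markers on each array, each minus its own mean over 6 arrays (log2); right, the 3′ minus 5′ difference (log2) of control probe sets for 4 transcripts. Both Cnot3+/- arrays lie above the mean for all 4 series on the left, and the first Cnot3+/- array stands out on the right for Actb (1.06), Gapdh (0.31) and Pcx (4.12).

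Set against fed wild-type liver, fasted Cnot3+/- liver had higher Ddit4, Wipi1, Map1lc3b and Bnip3. This comparison uses the same fed arrays as the fasting comparison, and it joins the fast and the genotype. Limma called 4 of 9 genes upward and 0 downward, where 3.88% of all genes were called upward, 3.68% downward and 7.56% in either direction. In 8 of 9 both Cnot3+/- arrays lay above both fed arrays and in 0 below, against 24.6% and 23.4% of all genes, and 8 of 9 had an unadjusted p under 0.05, against 21.3%. Ddit4 was 5.79-fold higher (log2 2.53, SE 0.21, adjusted p = 0.00226) and Wipi1 2.19-fold higher (1.13, SE 0.13, adjusted p = 0.0044). Map1lc3b rose 2.03-fold (adjusted p = 0.00727) and Bnip3 1.56-fold (adjusted p = 0.0193), close to their values in fasted wild-type liver. The calls of Ddit4, Wipi1 and Map1lc3b held when any 1 of the 4 arrays compared was left out. Bnip3 lost its call when the first fed array (0.0721), the second fed array (0.0909) or the second Cnot3+/- array (0.0795) was dropped. Sqstm1 (0.96, SE 0.26, adjusted p = 0.0732) and Atg16l2 (0.96, SE 0.26, adjusted p = 0.0756) did not pass, but without Cnot3+/- replicate 1 they did, at 1.34 for each (adjusted p = 0.0259 and 0.0262). Gabarapl1 differed by 0.45 (adjusted p = 0.106), Ulk1 by 0.40 (0.217) and Becn1 by -0.20 (0.558).

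Of 75 other autophagy genes measured among 76 listed, 4 rose and 1 fell in wild-type liver, with a median of 0.00 against 0.02 over all genes; of all genes 1.87% were called higher and 3.15% lower. Of the 75, 24 lay wholly above the fed arrays and 21 wholly below, shares near those of all genes (27.1% and 23.7%). Atg2a, which moves lipid into the growing membrane, rose from 8.69 and 8.56 to 9.34 and 9.31 (log2 0.70, SE 0.12, adjusted p = 0.0207). Tmem41b, a lipid scramblase of the endoplasmic reticulum, fell from 10.18 and 10.05 to 8.93 and 9.22 (log2 -1.04, SE 0.15, adjusted p = 0.0122). Among 13 conjugation genes and Atg8 proteins, Map1lc3a, a close relative of Map1lc3b, rose from 11.17 and 11.33 to 11.99 and 12.04 (0.77, SE 0.13, adjusted p = 0.0201). Atg4c and Atg4a, proteases that trim Atg8 proteins, differed by -0.66 and -0.58 without passing.

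Of 13 receptors measured, 2 rose, where 1.87% of all genes did: Ncoa4, the receptor for ferritin, by 0.67 (SE 0.12, adjusted p = 0.0228), and Retreg1, a receptor for the endoplasmic reticulum, by 0.90 (SE 0.20, adjusted p = 0.0483). Ncoa4 read 11.85 and 11.80 in fed and 12.55 and 12.43 in fasted wild-type liver, and Retreg1 11.79 and 11.17 against 12.41 and 12.36. None of 16 fusion genes and none of 13 transcription regulators passed (5.02% of all genes in either direction), with Ppara at 0.53 (adjusted p = 0.0681) nearest among the regulators and Ykt6, a fusion protein, at -0.37 (0.183) nearest among the fusion genes. Dropping 1 array left 1 call (first fed or second fasted array) or 0 calls (second fed or first fasted array) among these 75 genes.

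In the mTORC1 pathway, 1 of 39 measured genes rose after the fast and 2 fell, with a median of -0.02. These are shares near the 1.87% of all genes that rose and the 3.15% that fell. Sesn2, a sestrin that restrains mTORC1 when leucine is short, rose from 8.05 and 8.45 to 8.91 and 9.12 (log2 0.77, SE 0.17, adjusted p = 0.0466). This call was lost with a variance trend, with every probe set tested and with only the 2 groups compared in the fit. It was also lost when any 1 of the arrays compared was dropped. Sesn3, another sestrin, named after its values were seen, had the largest difference of the 39 and the opposite sign: it read 9.13 and 9.86 fed and 8.51 ± 0.01 (SD, n = 2) after the fast (-0.99, SE 0.22) and did not pass (adjusted p = 0.0528). Both genes that fell encode the catalytic subunit of AMPK, the energy-sensing kinase that inhibits mTORC1 and activates Ulk1. Prkaa2 fell from 11.37 and 11.57 to 10.62 and 10.59 (-0.87, SE 0.12, adjusted p = 0.0125). Prkaa1 read 6.35 and 6.50 in fed liver and 5.62 and 5.83 after the fast, near the array medians, where background limits the difference that can be read (-0.70, adjusted p = 0.0352). The count was 2 when the first fed array was dropped, 0 when the second fed array or either fasted array was dropped, and 1 when every probe set was tested.

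Between the fasted genotypes no gene of these lists passed. The 75 autophagy genes had a median of 0.09 and the 39 mTORC1 genes of 0.04, against 0.00 over all genes, and 29 of the 75 lay wholly above the wild-type arrays and 2 wholly below, against 17.5% and 18.5% of all genes. Atg2a differed by 0.55 (SE 0.12), Retreg1 by 0.56 (SE 0.20), Pdpk1, a kinase upstream of mTORC1, by 0.53 (SE 0.13), and Crtc2, a coactivator of CREB, by 0.41 (SE 0.13). These genes lie on the upper side: differences ran from -0.27 to 0.56 over the 75 autophagy genes and from -0.26 to 0.53 over the 39 mTORC1 genes. Like Wipi1, Atg2a formed 3 steps, with 9.85 and 9.90 on the Cnot3+/- arrays.

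Against fed liver, fasted Cnot3+/- liver had 7 of the 75 autophagy genes up and 2 down, where 3.88% of all genes were up and 3.68% down. Those up were Retreg1 (1.46), Atg2a (1.25), Map1lc3a (0.89), Ncoa4 (0.79), Calcoco1 (0.77), Mitf (0.66) and Crtc2 (0.65), and those down Tmem41b (-1.09) and Atg4a (-0.65). Of the 39 mTORC1 genes 4 were up, namely Sesn2 (1.13), Pdpk1 (0.78), the kinase Mtor itself (0.67) and its substrate Eif4ebp1 (0.58). Prkaa1 and Prkaa2 were down (-0.73 and -0.63), a share near that of all genes. Single arrays weighed on both counts: dropping any 1 of the 4 arrays compared lowered the number of autophagy and of mTORC1 genes called. The mTORC1 genes then called were not all among those named. With only the 4 arrays compared in the fit the counts were 5 and 3.

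**Figure D5:**
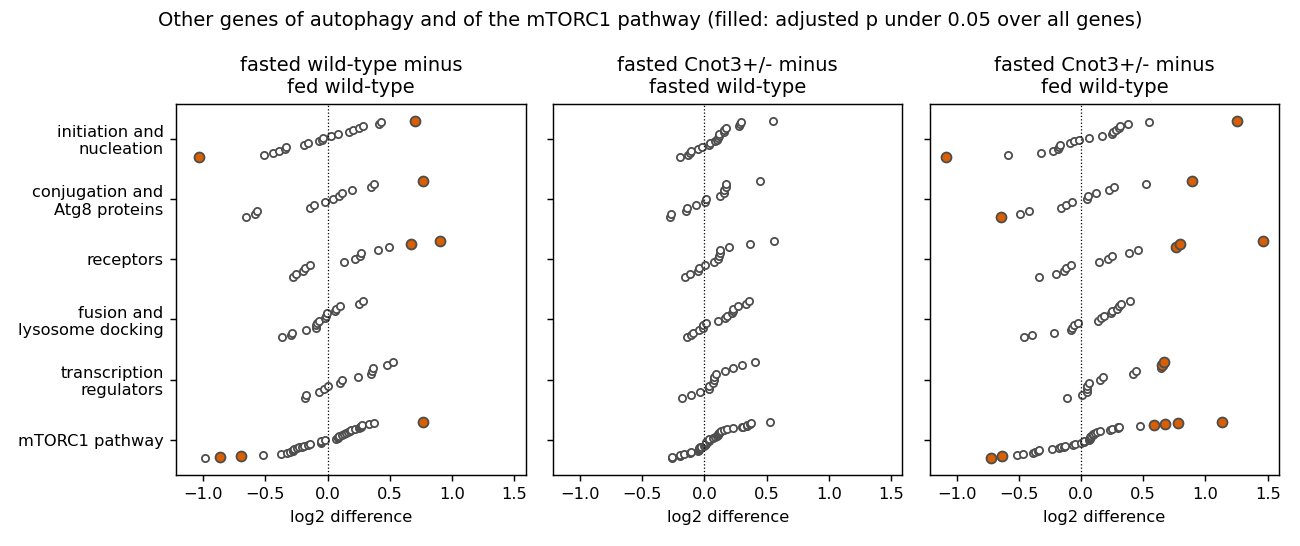
Log2 differences of other autophagy genes in 5 lists and of mTORC1 pathway genes in 3 comparisons, 1 point per gene; filled points passed limma's test over all 18193 genes. Points lie on both sides of 0 after the fast, with Tmem41b lowest at -1.04 and Retreg1 highest at 0.90, and none is filled between the fasted genotypes.

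Among the 9 genes, profiles over the 6 arrays were compared after centring each gene on its own mean, by the root mean square difference in log2. The closest pairs were Bnip3 with Gabarapl1 (0.12), Bnip3 with Map1lc3b (0.18) and Map1lc3b with Sqstm1 (0.18). Ddit4 stood farthest from the rest, nearest to Wipi1 at 0.62 and farthest from Becn1 at 1.17. Over all genes brighter than the median gene (6.74), those nearest to Ddit4 were Vcam1 (0.29), Clca3a1 (0.37), Cd163 (0.37) and Ms4a6b (0.38), besides 1 gene known by number only. Cd163 is one of the Kupffer cell and macrophage markers used here and read 7.64 and 8.34 fed, 8.84 and 8.62 in the fasted wild type and 10.06 and 9.47 in the fasted heterozygotes. Nearest to Map1lc3b were Nr1i3 (0.05), Rtf2 (0.05), Grn (0.06) and Ifnar2 (0.07), besides 1 clone. These distances are descriptions over 6 arrays that fall into 3 groups, and genes with large differences have larger distances to everything.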

How the data were processed

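Liver RNA of 6 mice was measured on arrays with 45101 probe sets. The deposited values are log2 levels made by the authors with RMA, per the submitters' processing notes; its version is not given in the sources used here. They were used as deposited. Of the probe sets, 34945 name 1 gene, 932 name several, 9160 name none and 64 are controls; symbols were updated by gene ID, and each of 18193 genes took its brightest single-gene probe set. limma 3.58.1 (R 4.3.3) was fitted to all 6 arrays with 3 group means (residual df 3, prior df 4.24), adjusted over all genes within each comparison and called at 0.05. SE is the moderated standard error. A level at or under an array's median was not shown to be above background. Members, pathway lists and markers were chosen with earlier results of these data known. Eligible for naming were the members, called list genes or those with the smallest p up to 3, and the 5 nearest profiles to Ddit4 and Map1lc3b. Not every eligible list gene is named. Optn, Samtor and Rps6kb1 had no single-gene probe set. The scripts were tested on simulated data. Figures were drawn with matplotlib 3.10.9. The alternatives were a variance trend, cyclic loess, a dim filter, other choices of probe set, a replicate block, fits of 2 groups and leaving out each array.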

Additional observations from a re-analysis of the deposited data

How the results depend on the processing

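Over 8 settings other than leaving out an array, 213 of 216 member differences kept their direction. The exceptions arose with the mean over probe sets: Becn1 became 0.0048 between the fasted genotypes and 0.10 in fasted Cnot3+/- against fed liver, and Sqstm1 became 0.014 between the genotypes. With 1 of the 4 arrays of a comparison left out, 100 of 108 kept their direction; the others were small differences, whose ranges were -0.20 to 0.22 for Ulk1 and -0.37 to 0.13 for Atg16l2 after the fast, and -0.058 to 0.21 for Map1lc3b, -0.44 to 0.31 for Sqstm1 and -0.040 to 0.061 for Bnip3 between the genotypes. Over all genes, 340 rose and 573 fell after the fast, and with 1 array left out 51 to 147 rose and 84 to 311 fell. Against fed liver the counts were 706 and 669, with 313 to 445 and 266 to 484 left; only the 2 groups gave 395 and 462. Between the genotypes 0 to 2 genes were called. A group left with 1 array is assumed to vary like the others. Called members ranged from 0 to 0 after the fast and from 3 to 6 in fasted Cnot3+/- against fed liver with 1 array left out, and 0 were called between the genotypes throughout. For the other autophagy genes the ranges were 0 to 1 and 4 to 6, and for the mTORC1 genes 0 to 2 and 1 to 4. The mTORC1 count after the fast was 1 with every probe set tested. With only the 2 groups compared in the fit, the counts against fed liver were 5 autophagy and 3 mTORC1 genes. Sqstm1 passed after the fast with a variance trend (adjusted p = 0.0494; 0.0479 against fed liver) and with only the 2 groups in the fit (0.0283). The replicate numbers share no stated origin, and deviations of same-numbered arrays correlated at 0.04 (fed with fasted wild-type), -0.01 (fed with Cnot3+/-) and 0.45 (both fasted groups). With the replicate number as a block, 4 members were called after the fast, 6 in Cnot3+/- against fed liver and 0 between the genotypes; Sqstm1 passed in the first 2 comparisons named (0.0174 and 0.0162) and Atg16l2 against fed liver (0.0253). The cause of each change was not tested, except that a fit with fewer arrays has fewer degrees of freedom by construction.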
